A study of Mus musculus with 20 samples.

Results

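The guanylate-binding protein genes Gbp2, Gbp3, Gbp4, Gbp5, Gbp6, Gbp7, Gbp8 and Gbp9 were examined in knee joints of mice with surgically induced osteoarthritis. These are 8 of the 14793 genes with a normalized count, and all 8 were found by their gene symbol. They were chosen by measured values of these same joints, with earlier results known in which single joints stood apart, so their levels and fold changes are given as a description. Bulk RNA sequencing covered 20 joints from 20 mice, with 5 biological replicates in each of 4 groups, and whole joints were taken en bloc with cartilage, synovium, capsule and adjacent bone. All mice were 12-week-old C57BL/6Nci males with destabilization of the medial meniscus (DMM) of the right knee. In controls a needle was inserted with no cells, whereas treated knees were injected at weeks 3 and 5 after surgery with adipose mesenchymal stromal cells (MSC) that all came from a single pooled donor source. The cells were given non-activated (MSC), activated with the TLR3 agonist pIC (TLR3-MSC) or activated with 2′3′cGAMP, which stimulates the STING pathway (STING-MSC), both at 10 µg/mL for 2 h. The study's methods give 8 weeks after surgery as the time of collection, while its results text gives 24 h from injection, so the interval between the last injection and collection is uncertain here.

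Guanylate-binding proteins are large GTPases that cells make in response to interferons, above all interferon-gamma. They gather on vacuoles that hold microbes and on bacteria in the cytosol, where they help to break the membrane open and to start inflammasome signalling. They work beside the immunity-related GTPases, a second interferon-induced family, and macrophages are known for strong expression of both. In the mouse the Gbp genes lie in clusters on a pair of chromosomes. Here Gbp5 (142199739 to 142228106), Gbp7 (142236103 to 142255911), Gbp3 (142265787 to 142278971) and Gbp2 (142326363 to 142343770) were on the plus strand of chromosome 3 of GRCm39. The other 4 were on the minus strand of chromosome 5, with Gbp8 at 105162016 to 105287407, Gbp9 at 105225496 to 105287406, Gbp4 at 105263633 to 105287453 and Gbp6 at 105418568 to 105441565. The deposited spans of Gbp4, Gbp8 and Gbp9 overlap, and 107 exon bases are shared among their gene models, which is 1.10% of the exon bases of Gbp4, 2.38% of Gbp8 and 1.11% of Gbp9. For Gbp6, 34.1% of all 150-base transcript stretches occur identically in another Gbp gene, so its reads cannot be fully told apart from those of its nearest copies, whereas for the other 7 members this share was at most 0.0179%.

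Interferon-responsive genes often carry a short promoter element, the interferon-stimulated response element (ISRE), and the stretches that hold it are shown because they are shared by the members with a RefSeq promoter entry. Promoter windows of RefSeq (250 bases before to 50 after the start, table of GRCm38.p6) were found for Gbp2, Gbp3, Gbp5 and Gbp7, and each matched chromosome 3 of GRCm39 exactly 1 time. The letters GAAANNGAAA, or TTTCNNTTTC on the other strand, occurred in 4 of these 4 genes, against 3.99% of 27025 genes with any such window. They were also in 5 of 6 immunity-related GTPases and 10 of 17 type I interferon-stimulated genes with a window, so they are not particular to the members. Other lists held them less often, with 1 of 12 other interferon-gamma-induced genes and 1 of 8 interferon regulatory factors and Batf2. They were in 2 of 11 interferon ligands, receptors and JAK-STAT genes and 0 of 10 inflammasome and pyroptosis genes. The matches in the members are in capitals, each with the 14 bases before it, on the plus strand of GRCm39, and positions are counted back from the RefSeq start.
Gbp2, chr3:142326351-142326374, match beginning 59 bases before the start: aggaactcttttagTTTCACTTTC
Gbp3, chr3:142265746-142265775, 2 overlapping matches beginning 45 and 39 bases before the start: atgtcaggacacagTTTCAGTTTCTATTTC
Gbp7, chr3:142236030-142236053, match beginning 53 bases before the start: gcctgtgtgtgcagTTTCAGTTTC
Gbp5, chr3:142202516-142202539, match beginning 165 bases before the start: ctgaacttgtgtagTTTCAATTTC
The GENCODE annotation places some starts of these genes further upstream, so that the matches overlap annotated exons there. The RefSeq start minus the start of the deposited gene span was 2956 bases for Gbp5, 61 for Gbp2, 18 for Gbp3 and −6 for Gbp7. The matches of Gbp5 and Gbp2 therefore lie inside the deposited spans, not before them. A second window of Gbp3 held no match. The letters TTCNNNGAA, which read the same on both strands and are the core of the interferon-gamma-activated site, occurred in 2 of the 4 genes (Gbp5 and Gbp7), against 9.55% of all genes. They were in 4 of 6 immunity-related GTPases, 4 of 17 type I interferon-stimulated genes and 3 of 12 other interferon-gamma-induced genes. In the remaining lists they were in 3 of 8 interferon regulatory factors and Batf2, 3 of 11 ligands, receptors and JAK-STAT genes, and 0 of 10 inflammasome genes. A match is a description of letters and no evidence of binding in these joints.

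Libraries held from 27955496 to 52529972 reads on the 14793 genes, and each member had at least 40 reads in every joint. Markers of macrophages, neutrophils, B cells, T and NK cells, cartilage, bone, synovial fibroblasts, muscle and endothelium were detected in the joints, as whole-joint tissue would hold. In such bulk tissue, more cells of a type and more RNA per cell cannot be told apart.

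Levels between members were compared per kilobase of exon. In control joints Gbp2 was the most abundant at 235 ± 74.4 normalized counts per kilobase (SD, n = 5), followed by Gbp3 at 118 ± 31.0 and Gbp7 at 116 ± 24.3. Gbp9 reached 68.9 ± 8.59, Gbp8 44.9 ± 15.3, Gbp4 38.9 ± 16.2 and Gbp5 33.9 ± 8.08, and Gbp6 was the least abundant at 12.9 ± 4.06. Gbp3 and Gbp7, Gbp8 and Gbp4, and Gbp4 and Gbp5 did not differ beyond their SD, while every other gap between neighbours was wider than either SD. The exon length is the union over all annotated transcripts, which lowers the value of genes with many transcripts.

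For no member did a treatment group lie wholly above or wholly below another group. A single joint that received STING-MSC, replicate 3, was above all 19 others for 7 of the 8 members, for Gbp8 by only 1.03 times. For the other 6 its value was from 1.75 (Gbp7) to 4.00 (Gbp2) times that of the next-highest joint. The remaining joints of the 4 groups overlapped. Gbp2, whose protein is recruited to parasite vacuoles, had normalized counts of 548, 549.7, 530.3, 443 and 932 in control joints and 719, 533, 369, 323 and 515 in MSC joints. The TLR3-MSC joints had 499, 516, 580.5, 515 and 660.1, and the STING-MSC joints had 374, 618, 3728, 456 and 389. The STING-MSC group therefore held both the highest value of the series and 3 joints below every TLR3-MSC joint.

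Gbp3, its neighbour on chromosome 3, was at 434, 505, 432, 409 and 728 in control, 653, 419, 452, 408 and 454 in MSC, 533, 467, 399.5, 455 and 469 in TLR3-MSC, and 405, 522, 1849, 466 and 401 in STING-MSC joints. Gbp5, which is known to promote inflammasome assembly, was at 242, 265, 206, 186 and 338 in control, 304, 209.6, 201, 205 and 267 in MSC, 254, 174, 159.5, 206 and 237 in TLR3-MSC, and 164, 194, 922, 179 and 269.6 in STING-MSC joints. Gbp7 was at 618, 765, 563, 607 and 916 in control, 743, 567, 607, 618 and 511 in MSC, 900.1, 589, 644, 649 and 644 in TLR3-MSC, and 657, 734, 1606, 633 and 604 in STING-MSC joints. In all 3 genes the third STING-MSC joint was the highest, control replicate 5 was the next highest, and the other joints of the 4 groups overlapped.

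On chromosome 5, Gbp4 was at 251, 479.6, 326, 232 and 599 in control, 362, 301, 256, 265 and 467 in MSC, 317, 274, 197, 180.2 and 259 in TLR3-MSC, and 212, 393, 1084, 197 and 265 in STING-MSC joints. Gbp6 was at 74.1, 87.0, 67.9, 74.0 and 135 in control, 74.4, 78.3, 39.8, 83.2 and 122 in MSC, 72.5, 70.3, 103, 74.6 and 64.4 in TLR3-MSC, and 66.9, 97.8, 459, 75.0 and 78.7 in STING-MSC joints. Both had the same highest and next-highest joints as the chromosome 3 members.

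Gbp8 and Gbp9 differed from the other 6 in that no joint stood apart. Gbp8 was at 252, 192, 168, 112 and 287 in control, 281, 180.2, 256, 225 and 156 in MSC, 240.2, 180.3, 134, 227 and 181 in TLR3-MSC, and 181, 229, 300.3, 221 and 292 in STING-MSC joints. STING-MSC replicate 3 was its highest joint by a margin of 1.03 times over STING-MSC replicate 5. Gbp9 was at 603, 731, 643, 581 and 774 in control, 616, 497, 479, 490.4 and 572 in MSC, 646, 509, 496, 435 and 553 in TLR3-MSC, and 425, 526, 737, 375 and 669.7 in STING-MSC joints. It was highest in control replicate 5, with the third STING-MSC joint second.

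**Figure D1:**
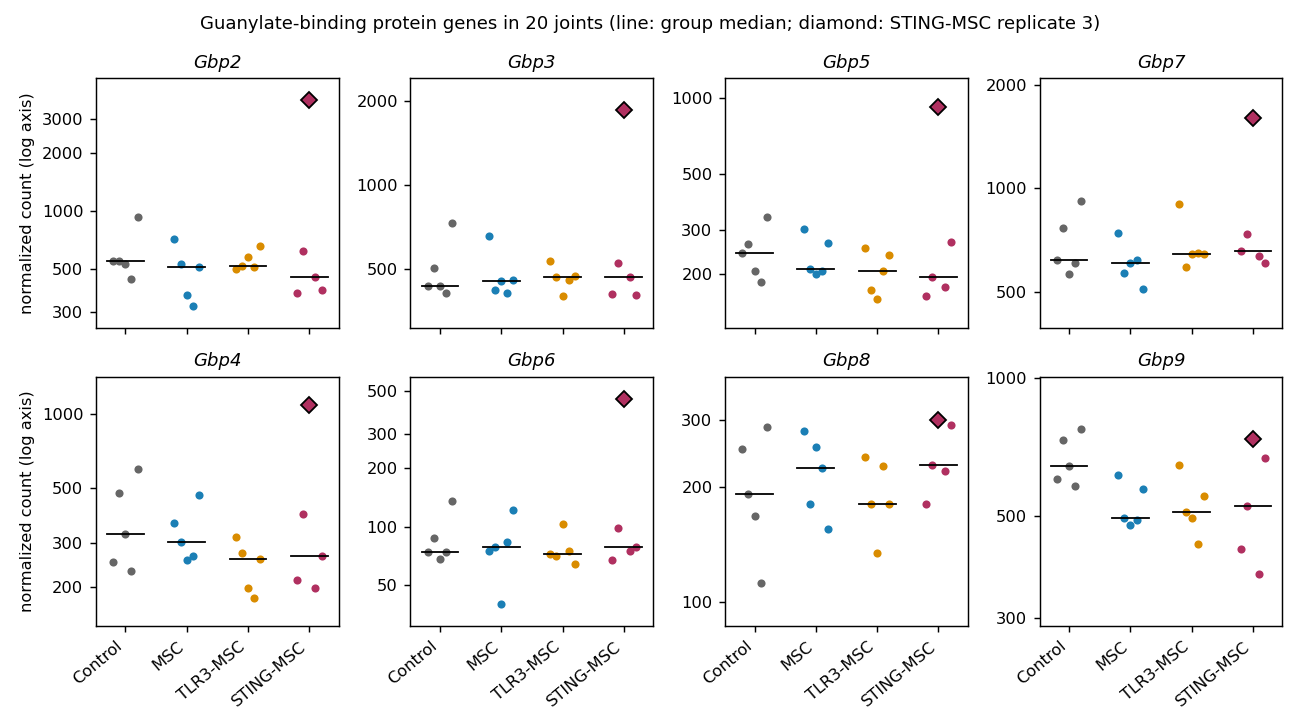
Normalized counts (log axis) of the 8 Gbp genes in each joint, by group; points are single joints, lines are group medians and the diamond is STING-MSC replicate 3. The diamond lies above every other joint for 7 genes (3728 against at most 932 for Gbp2) and below control replicate 5 for Gbp9 (737 against 774).

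Relative to the median of the other 19 joints, STING-MSC replicate 3 was 7.23-fold higher for Gbp2, 6.15-fold for Gbp6, 4.47-fold for Gbp5, 4.10-fold for Gbp4, 4.07-fold for Gbp3 and 2.54-fold for Gbp7. The corresponding ratios were 1.36 for Gbp8 and 1.33 for Gbp9. Across all genes the median ratio in this joint was 1.00, and 118 genes (0.798%) were at least 2-fold higher there. The joint was the highest of 20 for 7 of 8 members and for 2.45% of all genes, and because the members were selected on this joint nothing further is read from that count. Its depth of 33274155 reads lay inside the range of the other libraries.

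The gain differed between members in absolute terms. Gbp2 went from a median of 201 to 1456 normalized counts per kilobase, Gbp3 from 107 to 435, Gbp7 from 106 to 268, Gbp5 from 28.3 to 127, Gbp4 from 27.3 to 112 and Gbp6 from 11.0 to 67.6. Thus the order Gbp2, Gbp3, Gbp7 at the top was kept in this joint, while Gbp8 and Gbp9, whose medians over the other joints (49.1 and 57.2) were above those of Gbp4 and Gbp5, were below both in this joint at 66.7 and 76.3. The Gbp6 value carries the uncertainty of its shared sequence.

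A further Gbp gene outside the 8 members, named after its values were seen, had almost all of its reads in that joint. Gbp2b, which lies between Gbp3 and Gbp2 on chromosome 3, had 599 normalized counts (574 reads) in STING-MSC replicate 3 and at most 13.5 (16 reads) in any other joint, with 8 joints at 0 reads. Gbp10 had 61.5 there against 1.99 to 33.6 elsewhere, and Gbp11, at 7.30, was within its range of 0 to 34.6 in the other joints. Gbp10 shares 44.6% of its 150-base transcript stretches with another Gbp gene.

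Control replicate 5 was the other joint that deviated across the family. It ranked second for 6 members and first for Gbp9, and all 8 of its values were above the median of the 20 joints. Its mean log2 level over the members was 0.69 above the median joint, compared with 1.72 for STING-MSC replicate 3, 0.33 for MSC replicate 1, and −0.27 for the lowest joint, STING-MSC replicate 1. This library was the deepest, at 52529972 reads, and the part of depth in its Gbp levels was not tested.

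The question of whether activated cells changed joint gene expression was addressed by 6 comparisons between groups, fitted with limma on log2(normalized count + 1) across all genes. A gene passed the threshold with a fold change of at least 2 and an unadjusted p no higher than 0.05, or at a false discovery rate (FDR, Benjamini-Hochberg over all genes) of at most 0.05. In none of the 6 did a member pass either threshold. By p and fold, 0.73% of all genes passed for MSC against control, 0.331% for TLR3-MSC against control, 2.06% for STING-MSC against control, 0.399% for TLR3-MSC against MSC, 0.507% for STING-MSC against MSC and 0.622% for STING-MSC against TLR3-MSC. By FDR the shares were 0.00676% (1 gene) for MSC against control and 0% in the other 5 comparisons.

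Among the members, STING-MSC joints had the highest group mean for 7 of 8, with an SD larger than the mean for Gbp2 (1113 ± 1465, n = 5) and Gbp6 (155 ± 170.0). Without replicate 3 the STING-MSC mean of Gbp2 was 459 ± 112 (n = 4), below control (601 ± 190.4), TLR3-MSC (554 ± 67.0) and MSC (492 ± 156). With that joint left out, the control group had the highest mean for 7 of 8 members, and STING-MSC had the highest for 1 (Gbp8) and the lowest for 4. Neighbouring group means in these orders differed by less than the larger SD, except that for Gbp9 control (667 ± 83.1) was above the next group, MSC (531 ± 60.1), when the joint was left out.

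Against control, the log2 fold changes of STING-MSC ranged from −0.32 for Gbp9 to 0.40 for Gbp6 with a median of 0.22, beside 0.01 over all genes. Without replicate 3 the median was −0.21, 7 of 8 members were negative, and Gbp2 went from 0.24 ± 0.45 (SE) to −0.37 ± 0.23. Against MSC, all 8 were positive (median 0.27), led by Gbp6 at 0.58 ± 0.41 and Gbp2 at 0.54 ± 0.45, and without replicate 3 the median was −0.07 with 3 of 8 positive. Against TLR3-MSC, all 8 were positive (median 0.35), and without replicate 3 the median was −0.04 with 3 of 8 positive. These 3 comparisons share the STING-MSC joints, so their common direction is a single observation. The limma FDR of single members was at least 0.422 against control, 0.938 against MSC and 0.890 against TLR3-MSC.

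In the STING-MSC comparisons with all joints, tests of the recovered reads gave higher log2 fold changes than limma for Gbp2 to Gbp7. These tests were not run without STING-MSC replicate 3. For Gbp4 against control the sign changed, from −0.04 with limma to 0.17 with edgeR and 0.19 with DESeq2. The values were lower for Gbp8, which against control was at 0.26 with edgeR and 0.27 with DESeq2, beside 0.32 with limma. Gbp9 against control was at −0.30 and −0.28, beside −0.32 with limma. For Gbp2 the log2 value against control was 0.87 with edgeR and 0.89 with DESeq2, for Gbp6 it was 0.81 and 0.83, and for Gbp3 0.52 and 0.54. By p and fold, edgeR called Gbp2 against MSC, where 0.764% of all genes were called. DESeq2 called Gbp6 against TLR3-MSC, where 1.57% were called. Without Cook's cutoff and independent filtering, an alternative added after the data were seen, DESeq2 called Gbp2 against MSC, where 1.03% were called, and Gbp2 and Gbp6 against TLR3-MSC, where 1.8% were called. No member passed by FDR in these tests.

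**Figure D2:**
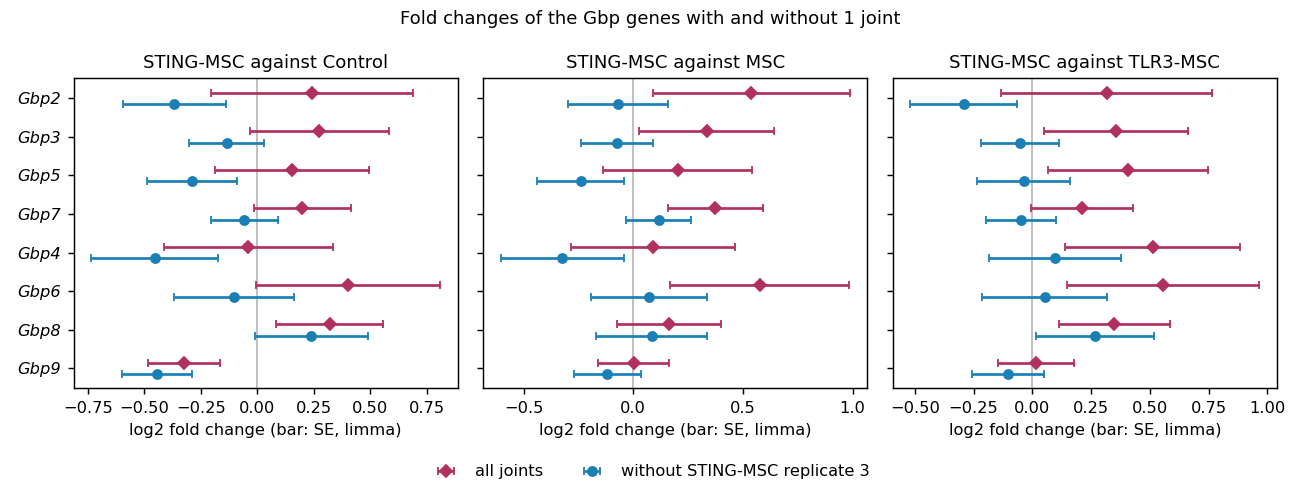
Log2 fold changes (limma, bars are SE) of the 8 Gbp genes in STING-MSC joints against control, MSC and TLR3-MSC joints, with all joints (diamonds) and without STING-MSC replicate 3 (circles). Against MSC the median over the genes is 0.27 with all joints and −0.07 without that joint.

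Between the other groups, the medians over the members were close to 0 or negative. MSC against control gave a median log2 fold change of −0.15 with 7 of 8 members negative, TLR3-MSC against control gave −0.12 with 8 of 8 negative, and TLR3-MSC against MSC gave −0.02 with 5 of 8 negative. Both comparisons with control share the 5 control joints, and without control replicate 5 their medians were 0.03 and 0.04. The largest single value was that of Gbp4 in TLR3-MSC joints, at −0.55 ± 0.37 (SE) against control (245 ± 56.4 against 377 ± 158, SD, n = 5) and −0.42 ± 0.37 against MSC, with limma FDRs of 0.9997 and 0.978.

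Gbp9 was the member with the lowest unadjusted p against control in all 3 treated groups. Its log2 fold change was −0.33 ± 0.16 (SE) in MSC, −0.34 ± 0.16 in TLR3-MSC and −0.32 ± 0.16 in STING-MSC joints, with limma FDRs of 0.596, 0.9997 and 0.422. Control joints lay between 581 and 774, and 4 of 5 MSC, 4 of 5 TLR3-MSC and 3 of 5 STING-MSC joints were below all of them. Without STING-MSC replicate 3 the STING-MSC value was −0.44 ± 0.15 with an FDR of 0.538. The direction was thus shared by all 3 groups, which have the same controls, and no comparison passed the threshold.

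The genes that rose beside the Gbp genes in STING-MSC replicate 3 were described from lists of interferon-related genes, using the ratio of count + 1 to the median of the other 19 joints. Of the immunity-related GTPases, which act with the Gbp proteins on microbial vacuoles, 7 of 11 were highest in this joint, with a median ratio of 2.48. Iigp1 reached 5052 against 320 to 1323 in the other joints, Irgm2 4113 against 949 to 1659, and Igtp 3840 against 807 to 1855. Of the other genes induced by interferon-gamma, 17 of 19 were highest there, with a median ratio of 1.77. Among them Cd74, the invariant chain of class II antigen presentation, was at 27420 against 8396 to 16440, and H2-Ab1, a class II chain, at 16660 against 5223 to 8687. Cxcl9, a chemokine that attracts activated T cells, was named after its values were seen and was at 2853 against 67.2 to 376.

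Genes stimulated by type I interferon were highest in this joint for 11 of 23, with a median ratio of 1.504. Their summed level of 30110 was within the 15820 to 37440 of the other joints, and the most abundant of them, Rsad2 and Cmpk2, ranked 9th and 4th. The sum of the immunity-related GTPases was 21130 against 5032 to 9889 in the other joints. For the other interferon-gamma-induced genes it was 94110 against 32180 to 54340. Among the interferon regulatory factors and Batf2, 3 of 10 were highest there with a median ratio of 1.34. Their sum was 20580 against 11370 to 19750. Irf1, an activator of Gbp genes, was at 2609 against 935 to 1833, Irf8, a factor of the macrophage lineage, at 6222 against 2591 to 6212, and Irf5 at 2469 against 1466 to 2712. Of the interferon ligands, receptors, JAK-STAT genes and their feedback regulators, 13 of 18 listed genes were analysed, 2 were highest there, and the median ratio was 1.11. The sum of these genes was 33900 against 29210 to 33550. Ifng itself was not analysed here. For the inflammasome and pyroptosis genes, downstream partners of the Gbp proteins, 2 of 11 were highest there and the median ratio was 1.26, with Ninj1 at 2939 against 1905 to 3654 and Gsdmd at 1992 against 1107 to 2217. The sum of this list was 9928 against 7202 to 10430.

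**Figure D3:**
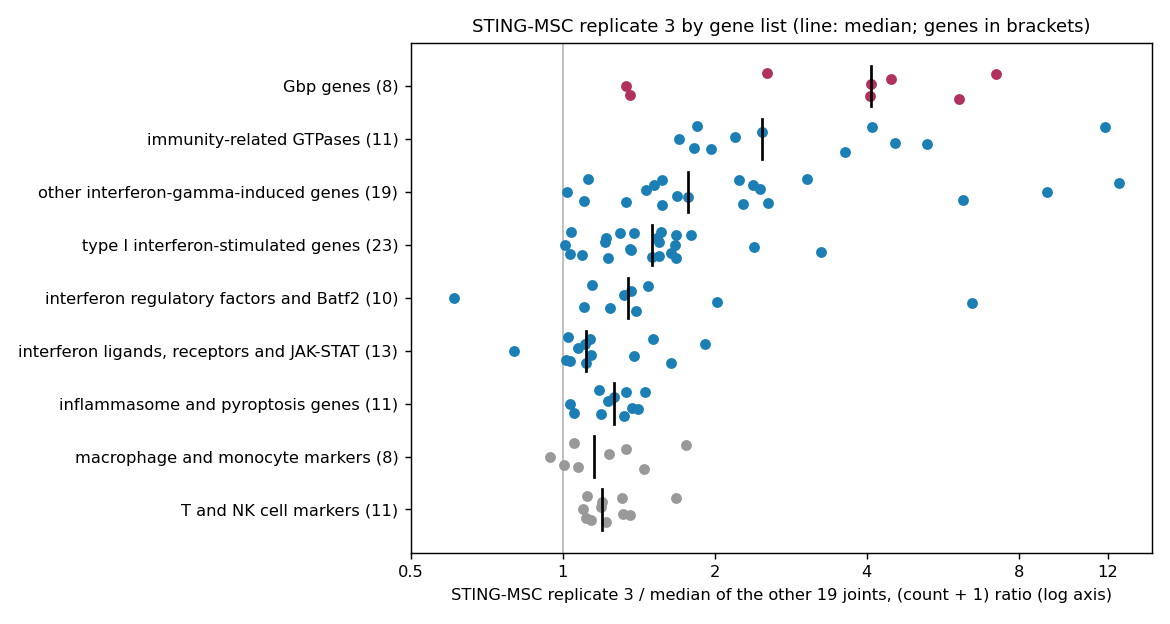
Ratio of STING-MSC replicate 3 to the median of the other 19 joints (count + 1, log axis) for each gene of the Gbp family, 6 related lists and 2 cell type marker lists; points are genes and lines are medians. The median is 4.07 for the Gbp genes, 2.48 for the immunity-related GTPases and 1.20 for T and NK cell markers.

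Summed markers of immune cells in that joint were within the range of the other joints but above their median, and a single marker, Fcgr1, exceeded its range. The median ratio was 1.195 for T and NK cells, 1.151 for macrophages and monocytes, 1.285 for B cells and 1.369 for neutrophils. Every T and NK cell, B cell and neutrophil marker was above the median of the other joints. So was every macrophage marker except Cd163, at a ratio of 0.942. For T and NK cells, 0 of 11 markers were highest there, none had a median of 0, and their sum was 3594 against 1208 to 3915. For macrophages and monocytes 1 of 8 was highest, Fcgr1 at 828 against 279.9 to 574, which is itself induced by interferon-gamma, and the sum was 40410 against 30180 to 43010. The sums for B cells (13410 against 6271 to 15590) and neutrophils (704600 against 328300 to 789600) were also inside the range, with 0 of 5 and 0 of 7 markers highest. Endothelial markers had a median ratio of 0.805 and a sum of 11430 against 10170 to 18740, and Cdh5 (1402) and Kdr (1243) were lower than in any other joint. Synovial fibroblast markers had a median ratio of 0.681 and a sum of 166400 against 30230 to 902600. Pdpn ranked 16th of 20 and Clic5 8th, with Clic5 above the median of the other joints at a ratio of 1.13. Prg4, Thy1, Htra4 and Col3a1 ranked 18th of 20. Of these, Col3a1 passed p and fold in STING-MSC against control at a log2 fold change of −2.05 (limma FDR 0.351), and at −2.07 without this joint. Cartilage markers had a median ratio of 2.17, bone markers 1.29 and muscle markers 0.846, with 0 of 6 highest in each. Whether cell content had a part in the Gbp levels of this joint was not tested beyond these values.

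Over the whole table, 24 genes were at least 2-fold higher (count + 1) in STING-MSC replicate 3 than in every other joint. They included 4 members (Gbp2, Gbp6, Gbp5 and Gbp3), Gbp2b, 11 genes of the interferon-related lists and 8 genes of no list. The last were Ccl17, Ccl22, Ccl12, Ccl7, Ch25h, Gm5431, Tnip3 and Apol9a, of which 4 encode chemokines. In the other joints this number ranged from 0 to 61, so that 1 joint, TLR3-MSC replicate 4, had more such genes.

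In the group comparisons, the genes of the related lists past the p and fold threshold are given beside the share of all genes. That share was from 0.331% to 2.06% over the 6 comparisons, and 0.507% in STING-MSC against MSC. The lists are short, so nothing is read from these counts. Of the immunity-related GTPases, 1 of 11 rose in STING-MSC against MSC, F830016B08Rik, at a log2 fold change of 1.22 (limma FDR 0.591). Among receptors and JAK-STAT genes 1 of 13 fell, Socs3, a feedback inhibitor of cytokine signalling, at −1.04 (limma FDR 0.852). No gene of the other interferon-gamma-induced, type I interferon-stimulated, interferon regulatory factor or inflammasome lists passed in any of the 6 comparisons with all joints, and no gene of these lists passed by FDR. Without STING-MSC replicate 3, F830016B08Rik (1.19, limma FDR 0.677) and Socs3 (−1.10, limma FDR 0.763) still passed in STING-MSC against MSC. In that fit Nos2, the inducible nitric oxide synthase, passed in STING-MSC against control at −1.20 (limma FDR 0.538). The median log2 fold change of the immunity-related GTPases in STING-MSC against MSC was 0.37, and 0.09 without replicate 3, beside 0.27 and −0.07 for the Gbp genes.

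Across the 20 joints, after subtracting group means, the 28 pairs of members had Pearson correlations from 0.15 to 0.95 with a median of 0.80. The closest pair was Gbp2 and Gbp3 at 0.95, and the 7 pairs that include Gbp8 had the lowest median, 0.46. Without STING-MSC replicate 3 and control replicate 5, the joints farthest from the median, and with group means taken again, the median over pairs was 0.38 and the range −0.36 to 0.79. Much of the shared variation therefore rested on these 2 joints, and all pairs share the same libraries.

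The 8 genes outside the members whose pattern was most like the mean of the members over 20 joints were Iigp1, Irgm2, Zbp1, Igtp, Batf2, Irgm1, Tgtp2 and Cd274, with Pearson correlations from 0.98 down to 0.85. The Spearman values were 0.93 for Iigp1, 0.83 for Irgm2 and 0.80 for Zbp1. Over the 18 joints left without the 2 farthest, Iigp1 remained the most alike of all genes by Pearson correlation at 0.83. Irgm2 was at 0.71 and Batf2 at 0.42. The 8 genes most alike over those 18 joints by Pearson correlation shared 1 gene, Iigp1, with the earlier 8. The Spearman value of Iigp1 was the lowest of these 8 at 0.70, and that of Tapbpl was the highest at 0.80. Genes with low counts such as Ctla4 (Pearson 0.78) and H4c18 (0.75) were among them. These values describe likeness within the same libraries and carry no test.

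**Figure D4:**
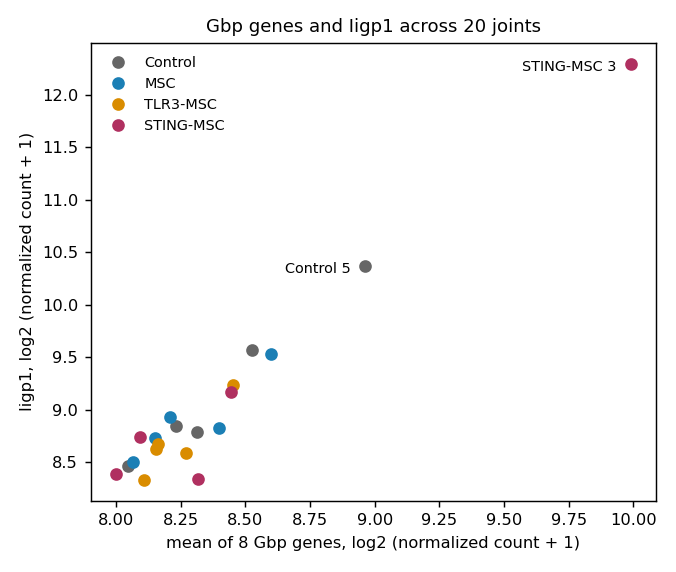
Level of Iigp1 against the mean of the 8 Gbp genes, both as log2(normalized count + 1), in each of 20 joints coloured by group. STING-MSC replicate 3 lies farthest at a Gbp mean of 9.99, control replicate 5 follows at 8.96, and the other 18 joints lie between 8.001 and 8.60.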

How the data were processed

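RNA of 20 mouse knee joints was sequenced with poly(A) selection. The authors aligned reads with STAR (version 2.7.3a) to GRCm39, counted them per gene with HTSeq on an Ensembl annotation in Partek Flow, and deposited median-ratio normalized counts, a normalized signal per gene. Strand use and a filter on low counts are not given in the sources used here. From 99.8% to 99.9% of values were whole multiples (within 0.1) of the value of 1 read, which gave the depth. A mean normalized count below 5 would have excluded a gene, which applied to 0 genes.

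Groups came from the sample labels. The main test was limma 3.58.1 (R 4.3.3) with trend on log2(normalized count + 1), over 20 joints and 4 groups, chosen because the deposited values are no raw counts, although the study names DESeq2. It was also run on simulated counts with genes raised in every STING-MSC joint, which does not cover a rise in a single joint. Other settings tried were a pseudocount of 0.5 or 5, a minimum mean of 20 or none, quantile normalization, a fit restricted to the pair of groups at hand, edgeR 4.0.16 and DESeq2 1.42.0 on the recovered reads, a block for the replicate number, and leaving out each joint. DESeq2 without Cook's cutoff and independent filtering was added after the data were seen, because DESeq2 gave Gbp2 no p. Replicates of a group always differed by more than counting noise (chi-square per gene at least 24.1 over 40 pairs).

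The members and the gene lists were chosen with earlier results of these data known. Named genes were the 8 members, per list the genes past p and fold or otherwise the 2 most abundant, Irf1, and the 8 most alike genes. A further gene of the rule is not reported here. Other named genes are exceptions chosen after their values were seen, among them Gbp2b, Gbp10, Gbp11, Cxcl9, Nos2, the cell type markers and the genes at least 2-fold above every other joint. Same-numbered joints are different mice, and their deviations from group means correlated from −0.66 to 0.46, so the numbers do not pair them.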

Additional observations from a re-analysis of the deposited data

Results flagged for a closer look

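Of 32 combinations of a member and a group of 5 joints, 11 had a highest joint whose gap to the nearest joint, divided by the range of the group, was above Dixon's critical value of 0.71. Over all genes, 3471 of 59160 combinations of a gene and a group (5.87%) were flagged. The members were chosen with joints that stand apart known, so their number is a description and nothing is read from it. STING-MSC replicate 3 accounted for 6 of the 11, with normalized counts of 3728 for Gbp2, 1849 for Gbp3, 1084 for Gbp4, 922 for Gbp5, 459 for Gbp6 and 1606 for Gbp7. These 6 genes vary together, so they are no separate observations. Control replicate 5 stood apart in its group for Gbp2 (932) and Gbp6 (135). The other 3 were Gbp3 in MSC replicate 1 (653), Gbp6 in TLR3-MSC replicate 3 (103) and Gbp7 in TLR3-MSC replicate 1 (900.1).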

How the results depend on the processing

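The number of members past p and fold was 0 in every comparison with limma under each alternative, and in each fit that left out a joint (lowest and highest 0). The count tests differed. edgeR on recovered reads called 1 member in STING-MSC against MSC (Gbp2, log2 fold change 1.14, FDR 0.92), and DESeq2 called 1 in STING-MSC against TLR3-MSC (Gbp6, 1.02, FDR 0.908). DESeq2 without Cook's cutoff and independent filtering called 1 in STING-MSC against MSC (Gbp2, 1.18) and 2 in STING-MSC against TLR3-MSC (Gbp2, 1.01, and Gbp6). No member reached an FDR of at most 0.05 in any of them. The median over members ranged, over the alternatives that kept all joints, from 0.22 to 0.39 in STING-MSC against control, 0.27 to 0.51 against MSC and 0.35 to 0.70 against TLR3-MSC. With 1 joint left out, it ranged from −0.21 to 0.37, −0.07 to 0.41 and −0.04 to 0.52 in these comparisons, each lowest without STING-MSC replicate 3. It ranged from −0.22 to 0.03 for MSC against control, −0.21 to 0.04 for TLR3-MSC against control, both highest without control replicate 5, and −0.08 to 0.03 for TLR3-MSC against MSC. With the replicate block the median was 0.22, 0.27 and 0.35 in the STING-MSC comparisons and 0 members passed, so the block changed no call. With 5 joints per group, 1 joint decides the direction of the STING-MSC medians.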
